A study of Mus musculus with 6 samples.

Results

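The circadian clock genes Arntl, Clock, Per1, Per2, Per3, Cry1, Nr1d1, Nr1d2, Dbp and Tef were examined in the dorsal skin of Cbl-b-/- and WT mice 24 h after UVB irradiation. Each was taken as the row of the deposited table that carries its symbol alone, and each of the 10 genes had exactly 1 such row among 35556 rows (transcript clusters, the array's unit for 1 gene locus), of which 21789 carry 1 gene symbol. The 10 genes were chosen by the results of this same comparison, so their differences between genotypes are given as a description, without a test. The 3 Cbl-b-/- mice (labelled clb-b -/-) and 3 WT mice on the BL6 background had each received UVB once, at 80 mJ/cm2, and the RNA of each mouse was hybridized to an Affymetrix Mouse Gene 1.0 ST array. Animals of the 2 genotypes were shaved on the back the day before and were kept in alternating light and dark periods of equal length, and no cell type is named to which the loss of Cblb was limited. The ages and the hour of the day at which skin was taken are not given in the sources used here, and arrays of nonirradiated skin were not analysed here. Values are log2 intensities, normalized across arrays by the authors, and log2 fold changes are Cbl-b-/- minus WT, given with their standard error (±); where 3 values of a genotype are listed, they are those of replicates 1, 2 and 3.

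The mammalian clock is a feedback loop of transcription. The proteins CLOCK and BMAL1 (the product of Arntl) bind E-box sequences as a pair and switch on Per, Cry, Nr1d1, Nr1d2, Dbp and Tef; the PER and CRY proteins then block CLOCK and BMAL1, while REV-ERB alpha and REV-ERB beta (the products of Nr1d1 and Nr1d2) repress Arntl through ROR elements, so that Arntl peaks when most of the other genes are low. DBP and TEF bind D-boxes, among them those of the Per genes. Skin has such a clock in keratinocytes, fibroblasts and hair follicles, where it is known for timing DNA repair, cell division and the response to UVB, and the level of each gene in a sample depends on the hour at which the tissue is collected.

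The promoters of members that belong to different arms of this loop are shown because the loop acts through them. They were taken from RefSeq (GRCm38.p6) and run 5′ to 3′ from 250 bases before to 50 bases after an annotated start. Such windows were given for 9 of the 10 genes, 14 in all, and 7 windows of 6 genes held at least 1 of 4 motifs searched on both strands. All windows shown are among those with a motif. The windows of Dbp, Nr1d2 and Clock, the first Arntl window and the second Per1 window held none. Capitals mark the motif, which is the ROR element TAGGTCA in the second Arntl window, the E-box CACGTG in Per1 and Tef, the D-box TTATGTAA in Per3, and AACGTG in Nr1d1, the reverse strand of the variant E-box CACGTT.
Nr1d1, chr11:98775328-98775627, minus strand: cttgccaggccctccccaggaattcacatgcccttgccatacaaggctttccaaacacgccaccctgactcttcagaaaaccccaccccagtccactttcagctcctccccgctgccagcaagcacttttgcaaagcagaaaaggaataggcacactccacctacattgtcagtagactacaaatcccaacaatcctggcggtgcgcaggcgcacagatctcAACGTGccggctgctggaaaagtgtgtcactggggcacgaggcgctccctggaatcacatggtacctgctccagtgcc
Per1, chr11:69098699-69098998, plus strand: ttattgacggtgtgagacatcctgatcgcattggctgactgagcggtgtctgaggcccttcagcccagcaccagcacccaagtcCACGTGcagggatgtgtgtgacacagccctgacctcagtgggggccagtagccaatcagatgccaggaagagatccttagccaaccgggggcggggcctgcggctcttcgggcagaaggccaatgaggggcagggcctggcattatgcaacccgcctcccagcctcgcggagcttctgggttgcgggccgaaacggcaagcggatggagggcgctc
Per3, chr4:151044616-151044915, minus strand: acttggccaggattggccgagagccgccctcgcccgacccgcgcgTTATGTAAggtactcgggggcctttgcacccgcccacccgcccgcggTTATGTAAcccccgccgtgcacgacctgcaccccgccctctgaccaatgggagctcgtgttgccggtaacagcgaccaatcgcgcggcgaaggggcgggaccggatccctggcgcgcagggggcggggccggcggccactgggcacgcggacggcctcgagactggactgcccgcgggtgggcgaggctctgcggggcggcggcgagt
Tef, chr15:81802423-81802722, plus strand: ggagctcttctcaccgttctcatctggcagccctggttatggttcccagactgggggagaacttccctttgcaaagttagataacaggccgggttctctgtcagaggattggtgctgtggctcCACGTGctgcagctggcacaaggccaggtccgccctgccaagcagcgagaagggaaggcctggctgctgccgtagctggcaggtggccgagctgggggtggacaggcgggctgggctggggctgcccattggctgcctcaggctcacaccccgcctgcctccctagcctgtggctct
Arntl, chr7:113207261-113207560, plus strand: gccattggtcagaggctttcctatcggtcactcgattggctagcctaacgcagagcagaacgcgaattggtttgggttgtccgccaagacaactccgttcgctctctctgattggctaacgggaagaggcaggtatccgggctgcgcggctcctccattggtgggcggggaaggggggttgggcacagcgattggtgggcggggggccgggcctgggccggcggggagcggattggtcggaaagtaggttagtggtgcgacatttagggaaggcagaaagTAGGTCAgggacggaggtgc
The Nr1d1 motif begins 28 bases before the start, the Per1 E-box 166 bases before it and that of Tef 127 bases before it. The Per3 window holds a pair of D-boxes, 205 and 158 bases before the start, and the ROR element of Arntl begins 31 bases after the start. Among 32851 RefSeq promoter windows of the same length, 7.15% held the E-box, 4.68% the variant E-box, 0.938% the D-box and 2.61% the ROR element. Cry1 and a second Tef window, not shown, held an E-box too, and no motifs overlapped in the windows shown. A match describes the letters only.

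A pair of arrays stood apart from the others of their genotype, and the clock genes moved with them. Skeletal muscle markers (14 of 14 measured) averaged 10.52, 9.30 and 10.37 in the Cbl-b-/- arrays and 10.62, 10.45 and 9.74 in the WT arrays, and adipocyte markers (8 of 9 measured) averaged 9.31, 7.51 and 9.13 in the Cbl-b-/- arrays and 8.71, 8.40 and 7.97 in the WT arrays, so that both lists were lowest in Cbl-b-/- replicate 2 and in WT replicate 3 within their genotypes. Of the 14 muscle markers 12 had a log2 fold change below 0. Myh2 (0.85 ± 0.28) was the 1 called higher by the thresholds given below, beside 0.216% of rows with 1 symbol. Hair follicle markers (20 of 23 measured) averaged 5.84, 6.63 and 6.98 in the Cbl-b-/- arrays and 5.63, 5.76 and 9.03 in the WT arrays, with WT replicate 3 far above the rest. The mean of the 10 clock genes followed the same pair: 8.40, 8.23 and 8.60 in the Cbl-b-/- arrays against 8.38, 8.33 and 8.05 in the WT arrays. The part of tissue composition in the clock gene values was not tested, and in whole skin fewer cells of a type and less RNA per cell cannot be told apart. Epidermal keratinocyte markers (10 of 12 measured) lay between 10.57 and 10.76 in the Cbl-b-/- arrays and between 10.38 and 10.76 in the WT arrays, dermal fibroblast markers (6 of 7) between 10.38 and 10.55 against 10.55 and 10.79, and leukocyte markers (11 of 11) between 8.29 and 8.91 against 8.29 and 8.81, so that the cell types of the labelled tissue were measured in all 6 arrays. Within their genotypes the keratinocyte and fibroblast markers too were lowest in Cbl-b-/- replicate 2 (10.57 and 10.38) and WT replicate 3 (10.38 and 10.55). Leukocyte markers were highest in Cbl-b-/- replicate 2 (8.91) and lowest in WT replicate 3 (8.29). Cblb, the inactivated gene, averaged 8.64 in Cbl-b-/- and 9.76 in WT skin. Array medians lay between 6.30 and 6.34, and the arrays correlated at 0.980 to 0.993 across rows.

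**Figure D1:**
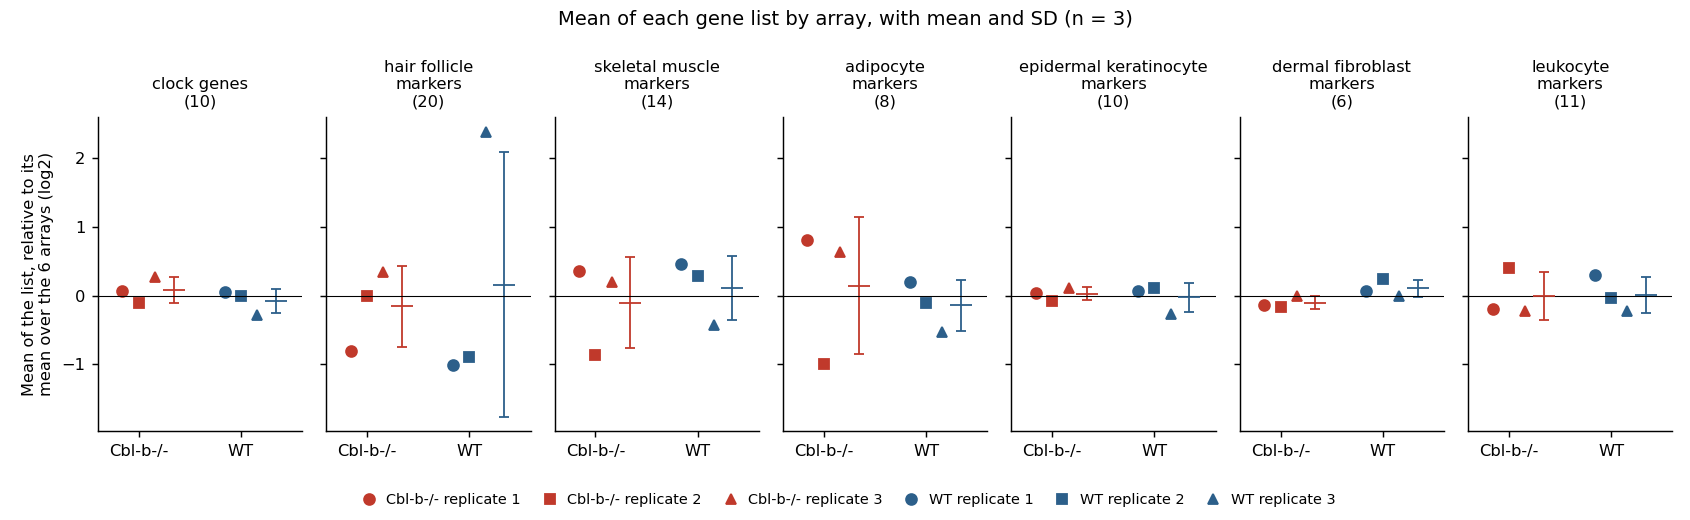
Mean of the 10 clock genes and of 6 marker lists in each array, relative to the list's mean over the 6 arrays (log2, y axis), for Cbl-b-/- and WT skin; symbols give the replicate, horizontal marks with bars the mean and SD of 3 arrays, and the number in brackets the genes measured. Within genotypes the clock genes and the muscle, adipocyte, keratinocyte and fibroblast markers were lowest in Cbl-b-/- replicate 2 and WT replicate 3. Hair follicle markers reached 9.03 in WT replicate 3.

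Nr1d1, which encodes the repressor REV-ERB alpha, differed most between the genotypes among the 10 genes. It measured 10.69, 10.31 and 10.64 in Cbl-b-/- skin and 9.96, 9.87 and 9.62 in WT skin. Every Cbl-b-/- array lay above every WT array, with a gap of 0.36 between the lowest Cbl-b-/- and the highest WT value, and within each genotype replicate 2 of Cbl-b-/- and replicate 3 of WT were lowest. The log2 fold change was 0.73 ± 0.14 (SE, n = 3 each), a 1.66-fold higher level in Cbl-b-/- skin. By the thresholds of the study (an unadjusted p under 0.05, here from limma, and at least 1.5-fold), Nr1d1 was the 1 gene called among the 10 and the other 9 were not. These thresholds called 434 rows, or 1.22% of all rows, and 0.496% of the rows with 1 gene symbol (0.216% higher and 0.28% lower in Cbl-b-/-). Nr1d1 was likewise the 1 member whose genotypes did not overlap, where 13.6% of rows with 1 symbol did not (9.5% with Cbl-b-/- higher, 4.11% with Cbl-b-/- lower). As the comparison itself chose the genes, nothing is read from these counts about the set.

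Nr1d2 encodes REV-ERB beta, the close relative of REV-ERB alpha, and showed a smaller difference of the same sign. Its values were 9.41, 9.14 and 9.39 in Cbl-b-/- skin and 9.24, 9.23 and 8.83 in WT skin. The genotypes overlapped, since Cbl-b-/- replicate 2 lay under a pair of WT arrays, and WT replicate 3 alone was below 9. The log2 fold change was 0.21 ± 0.14, and without WT replicate 3 it was 0.08 ± 0.11.

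The means of the activators Arntl and Clock differed by 0.10 or less between the genotypes. Arntl, the rhythmic partner of the pair and the main gene repressed by the REV-ERB proteins, measured 7.08, 6.96 and 7.18 in Cbl-b-/- skin and 7.01, 6.90 and 7.03 in WT skin. The log2 fold change came to 0.09 ± 0.09, and its within-genotype SD of 0.09 was the smallest of the 10 genes. Clock, whose protein is the other partner of the pair, measured 8.47, 8.60 and 8.40 in Cbl-b-/- skin and 8.48, 8.51 and 8.18 in WT skin. WT replicate 3 was the one low value, and the log2 fold change of 0.10 ± 0.11 became -0.01 ± 0.10 without it. The Arntl values of the genotypes overlapped, with WT replicate 2 and Cbl-b-/- replicate 2 the lowest.

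The PER genes varied more among mice of one genotype than between genotypes. Per1, an immediate target of CLOCK and BMAL1 and of other inducing signals, measured 8.84, 9.03 and 9.55 in Cbl-b-/- skin and 9.47, 9.32 and 9.05 in WT skin, with a log2 fold change of -0.14 ± 0.20. Per2, a core repressor, measured 7.73, 7.60 and 8.35 in Cbl-b-/- skin and 8.09, 8.05 and 7.67 in WT skin, with a log2 fold change of -0.04 ± 0.22. Per3, a member of the family that the core loop can do without, measured 8.05, 7.40 and 8.22 in Cbl-b-/- skin and 7.95, 7.76 and 7.56 in WT skin, with a log2 fold change of 0.13 ± 0.23. In all 3 genes Cbl-b-/- replicate 3 was the highest of the 6 arrays, WT replicate 1 was the highest and WT replicate 3 the lowest of the WT arrays, and the genotypes overlapped. Cry1, the late repressor of the loop, measured 7.11, 7.20 and 7.31 in Cbl-b-/- skin and 7.38, 7.42 and 7.11 in WT skin, with a log2 fold change of -0.10 ± 0.11. Here a pair of WT arrays lay above all Cbl-b-/- arrays and WT replicate 3 among them.

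Dbp and Tef, the output factors that bind D-boxes, were on average higher in Cbl-b-/- skin, with overlap. Dbp, a direct and strongly cycling target of CLOCK and BMAL1, measured 8.10, 7.80 and 8.41 in Cbl-b-/- skin and 7.88, 7.92 and 7.41 in WT skin. Cbl-b-/- replicate 2 fell under a pair of WT arrays, and the log2 fold change was 0.37 ± 0.20. Tef measured 8.57, 8.23 and 8.60 in Cbl-b-/- skin and 8.37, 8.28 and 8.06 in WT skin, again with Cbl-b-/- replicate 2 under a pair of WT arrays, and the log2 fold change was 0.23 ± 0.14. Leaving out WT replicate 3 gave 0.20 ± 0.19 for Dbp and 0.14 ± 0.14 for Tef, and leaving out Cbl-b-/- replicate 2 gave 0.52 ± 0.19 for Dbp and 0.35 ± 0.12 for Tef.

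**Figure D2:**
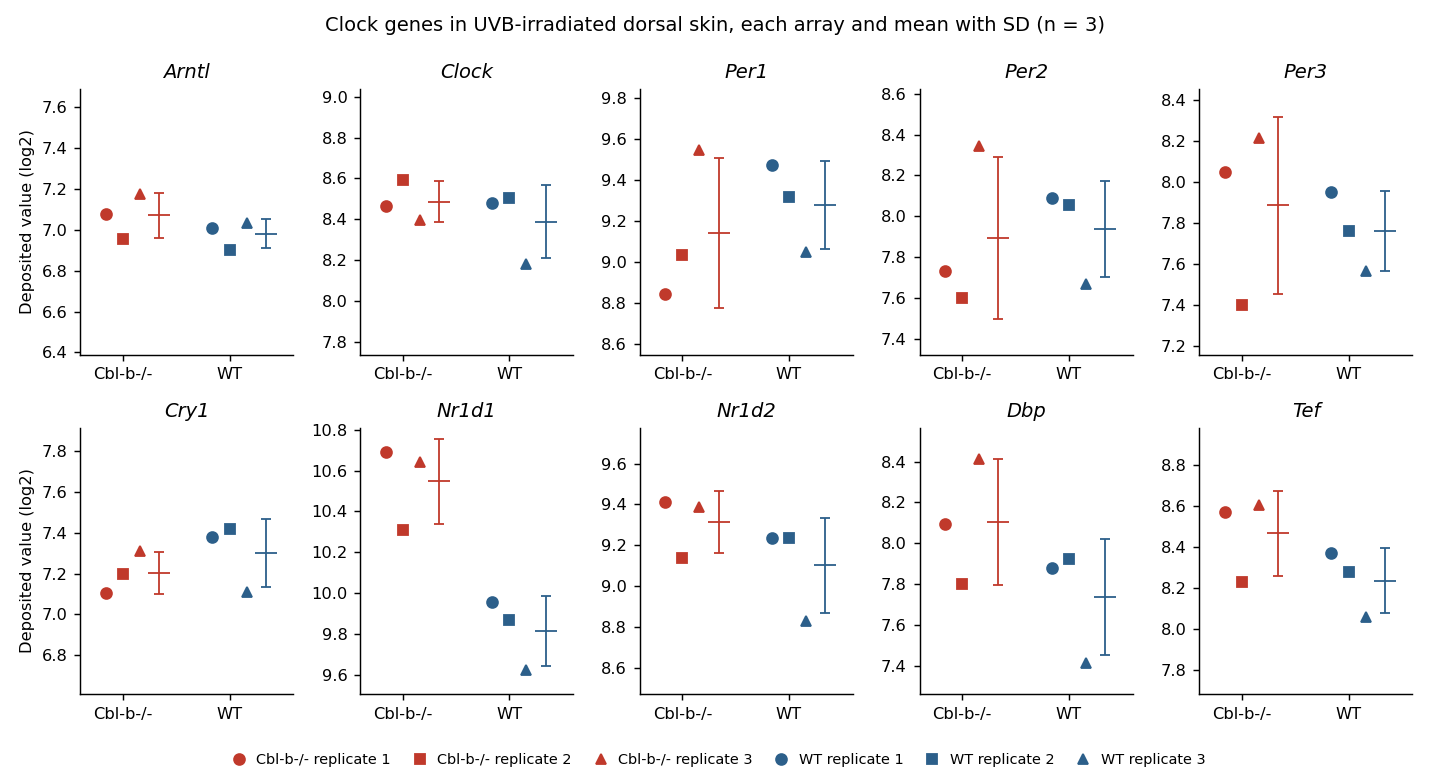
Deposited log2 value (y axis) of each of the 10 clock genes in the 3 Cbl-b-/- and 3 WT arrays; symbols give the replicate, horizontal marks with bars the mean and SD, and every panel spans the same height in log2 units. Nr1d1 shows no overlap (10.31 to 10.69 in Cbl-b-/- against 9.62 to 9.96 in WT skin), while the values of the other 9 genes overlap.

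Over the 10 genes, 7 log2 fold changes were above 0 and 3 below, with a median of 0.11, beside a median of 0.02 over all rows. Within genotypes most of the genes shared their lowest and highest arrays. How many other rows had the same arrays lowest and highest was not counted. Cbl-b-/- replicate 2 was the lowest of its genotype for 7 of the 10 genes and Cbl-b-/- replicate 3 the highest for 7. WT replicate 3 was the lowest of its genotype for 9 of the 10, Arntl being the exception, and WT replicate 1 the highest for 6. The within-genotype SD ran between 0.09 for Arntl and 0.34 for Per3. Those of Dbp (0.29), Per1 (0.30), Per2 (0.33) and Per3 (0.34) exceeded the SD of 84.9% to 88.7% of 12359 rows with 1 symbol and a mean at or above the table's median, whose own median SD was 0.14.

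Without both arrays that stood apart (a fit on 4 arrays, chosen after seeing the data), Nr1d1 had a log2 fold change of 0.75 ± 0.10, Dbp of 0.36 ± 0.14, Per3 of 0.28 ± 0.13, Tef of 0.26 ± 0.10, Arntl of 0.17 ± 0.11 and Nr1d2 of 0.17 ± 0.10. Clock (-0.06), Per1 (-0.20), Per2 (-0.03) and Cry1 (-0.19) were below 0, so that 6 of the 10 were above 0 and the median was 0.17. Only the sign for Clock differed from that with all 6 arrays.

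To compare the activator and repressor sides of the loop in each array, a score was formed. It was the mean of the activators Arntl and Clock minus the mean of the 6 repressors Nr1d1, Nr1d2, Per1, Per2, Per3 and Cry1. Its zero has no meaning across probes, so only its differences between arrays are read. Without a time course the score does not give the place of an array in the cycle. The score was -0.87, -0.67 and -1.12 in Cbl-b-/- skin and -0.94, -0.90 and -0.70 in WT skin. Both the lowest and the highest score belonged to Cbl-b-/- mice, and the WT mice lay between them. Mean scores were -0.89 ± 0.23 in Cbl-b-/- and -0.85 ± 0.13 in WT skin (SD, n = 3 each), a difference of -0.04 that was smaller than the SD within either genotype. The activators alone averaged 7.77, 7.78 and 7.79 in Cbl-b-/- skin and 7.74, 7.71 and 7.61 in WT skin, without overlap but only 0.09 apart in the mean. The repressors alone averaged 8.64, 8.45 and 8.91 in Cbl-b-/- skin and 8.68, 8.61 and 8.31 in WT skin, with overlap and a difference of 0.13. Over the 6 arrays the activators spanned 7.61 to 7.79 and the repressors 8.31 to 8.91, so the score mostly followed the repressors. The highest scores within the genotypes fell on Cbl-b-/- replicate 2 and WT replicate 3. The same arrays had the lowest muscle, adipocyte, keratinocyte and fibroblast markers of their genotypes. The part of tissue composition in the scores was not tested. The choice of genes set the size of the difference. It was -0.08 without Cry1 and -0.08 with Dbp and Tef among the repressors. For Arntl minus Nr1d1 alone it was -0.64, and the genotypes did not overlap. Nr1d1 was chosen by its own difference between genotypes, so that separation was largely set in advance. With each gene of the full score in units of its own SD over the 6 arrays the difference was 0.52 SD units, of the opposite sign.

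**Figure D3:**
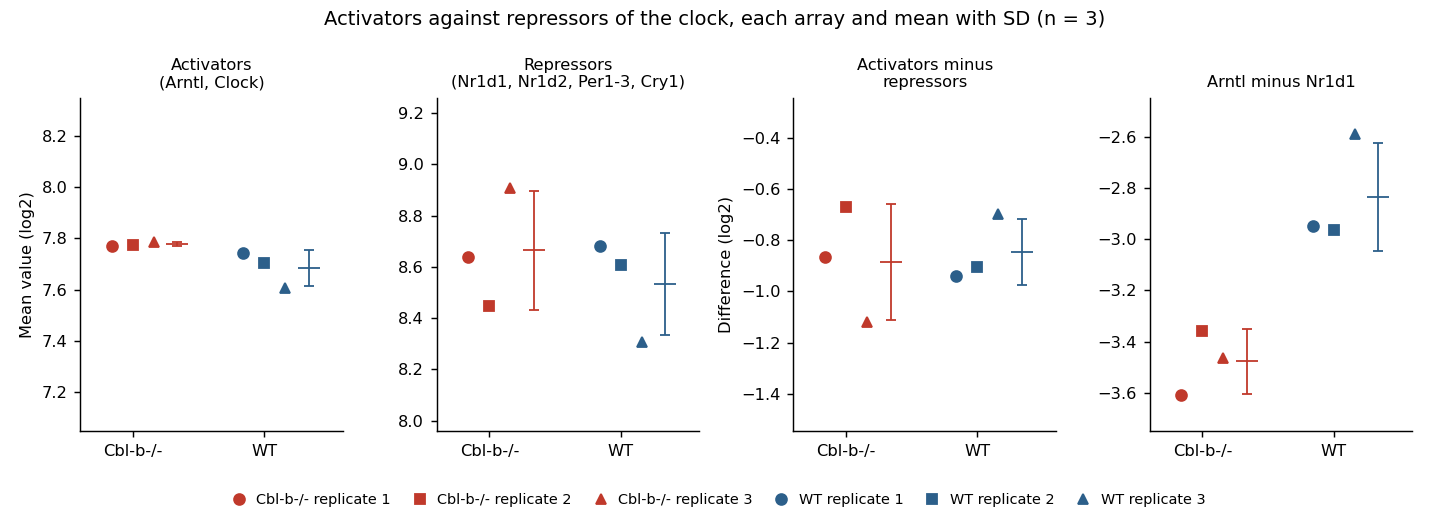
Mean log2 value of the activators, of the repressors, their difference, and Arntl minus Nr1d1 (y axes) in each Cbl-b-/- and WT array, with mean and SD of 3 arrays. The difference of activators and repressors overlaps (-1.12 to -0.67 in Cbl-b-/- against -0.94 to -0.70 in WT skin), and Arntl minus Nr1d1 does not. Nr1d1 was chosen by its own difference between genotypes, so the latter separation was largely set in advance.

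Nr1d1 was then compared with each of the 9 other members in the same array, so that a shift common to both genes of a pair cancels. In all 9 pairs every Cbl-b-/- array lay above every WT array, and the mean difference between genotypes ran between 0.36 (against Dbp) and 0.87 (against Per1). The closest arrays were found against Tef. Nr1d1 minus Tef was 2.12, 2.09 and 2.04 in Cbl-b-/- skin and 1.58, 1.59 and 1.57 in WT skin, a difference of 0.50 with SDs of 0.04 and 0.01, although the 2 genes had varied by 0.31 to 0.38 within genotypes. Nr1d1 minus Nr1d2 was 1.27, 1.18 and 1.25 in Cbl-b-/- skin and 0.72, 0.63 and 0.79 in WT skin, a difference of 0.52. Against Dbp the arrays came nearest to overlap, at 2.59, 2.51 and 2.23 in Cbl-b-/- skin and 2.08, 1.95 and 2.21 in WT skin. The 9 differences share Nr1d1 and are not independent of each other or of its own difference. Nr1d1 was chosen by that difference, and its lowest Cbl-b-/- value already lay 0.36 above its highest WT value. Separation in the pairs was therefore largely set in advance, and is given as a description.

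**Figure D4:**
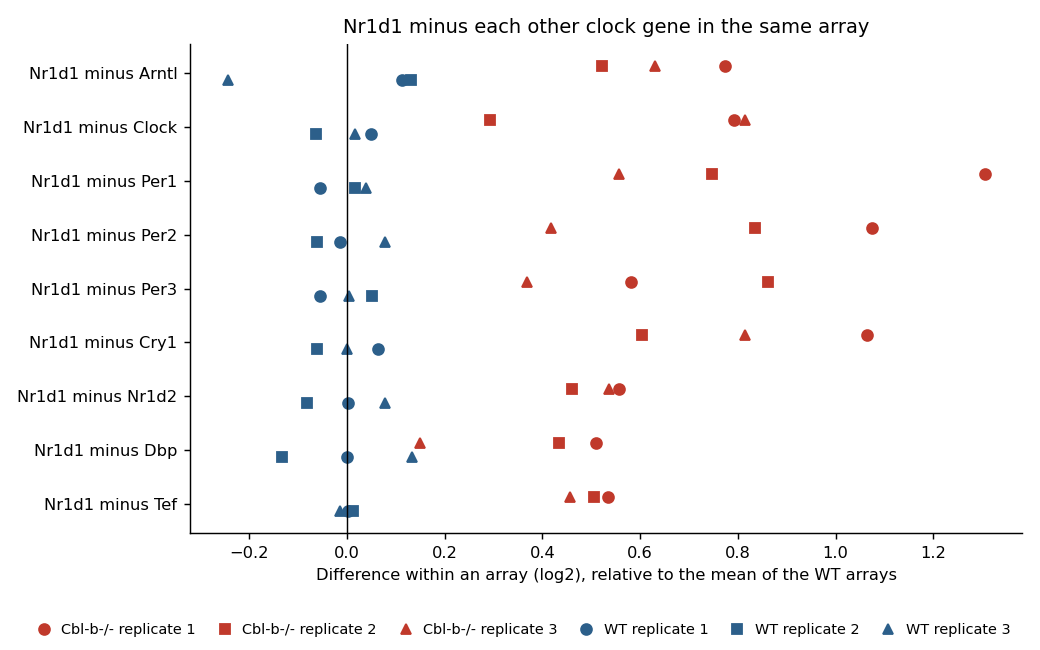
Nr1d1 minus each of the 9 other clock genes in the same array (x axis, log2, relative to the mean of the 3 WT arrays), for Cbl-b-/- (upper symbols of each line) and WT arrays (lower symbols). In all 9 comparisons the Cbl-b-/- arrays lie to the right of the WT arrays, with mean differences of 0.36 to 0.87.

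Thra, which encodes the thyroid hormone receptor alpha, overlaps Nr1d1 on the opposite strand by 1075 bases in the RefSeq annotation, and was looked up after the values of Nr1d1 had been seen. It measured 9.27, 9.06 and 9.34 in Cbl-b-/- skin and 8.83, 8.82 and 9.06 in WT skin. Cbl-b-/- replicate 2 and WT replicate 3 nearly touched, and no array overlapped. Of rows with 1 symbol, 9.5% were higher in Cbl-b-/- skin without overlap. Thra had a log2 fold change of 0.32 ± 0.11 (limma, adjusted p = 0.748), under 1.5-fold. Nr1d1 minus Thra differed by 0.41 between the genotypes, so the difference in Nr1d1 was the larger of the 2. Whether probes of either row lie in the shared stretch was not tested.

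Among 23 other clock genes, 20 were measured, and no gene was called in either direction, beside 0.496% of rows with 1 symbol. By limma 0 of the 20 had an unadjusted p under 0.05, and the per-row test named in the study's methods called 0 as well. Their median log2 fold change was 0.03, with 14 above 0 and 6 below. Nfil3, a repressor that competes with DBP and TEF for D-boxes, measured 7.13, 8.13 and 7.42 in Cbl-b-/- skin and 7.92, 8.10 and 8.16 in WT skin (log2 fold change -0.50 ± 0.25). Cbl-b-/- replicate 2 lay within the WT values and the other Cbl-b-/- arrays below them, and without that array Nfil3 was called, at -0.78, while it was at -0.28 and not called without Cbl-b-/- replicate 1. Hlf, the third D-box activator beside DBP and TEF, measured 7.39, 6.70 and 7.89 in Cbl-b-/- skin and 7.28, 6.94 and 6.77 in WT skin (0.33 ± 0.30), and was called at 0.64 without Cbl-b-/- replicate 2, against 0.05 without Cbl-b-/- replicate 3. Rora, whose product activates through the ROR elements that the REV-ERB proteins occupy, measured 10.02, 9.59 and 10.07 in Cbl-b-/- skin and 9.84, 9.76 and 9.18 in WT skin (0.30 ± 0.21). As in Dbp and Tef, the lowest arrays of Rora within their genotypes were Cbl-b-/- replicate 2 and WT replicate 3, and its log2 fold change was 0.45 when Cbl-b-/- replicate 2 was left out, but 0.09 when WT replicate 3 was. Ciart, a repressor of CLOCK and BMAL1 that has 2 rows, had log2 fold changes of 0.23 and 0.08 in them. The kinases and ubiquitin ligase subunits that set the stability of PER and CRY included Csnk1d at -0.01, Csnk1e at 0.05 and Btrc at -0.04. Fbxl21, which acts on the CRY proteins, was the 1 gene of the 20 without overlap (9.5% of rows with 1 symbol were higher in Cbl-b-/- without overlap). It averaged 5.31 in Cbl-b-/- and 5.10 in WT skin, under the table's median row mean of 6.32, so its row may not lie above background, and no difference is read from it.

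**Figure D5:**
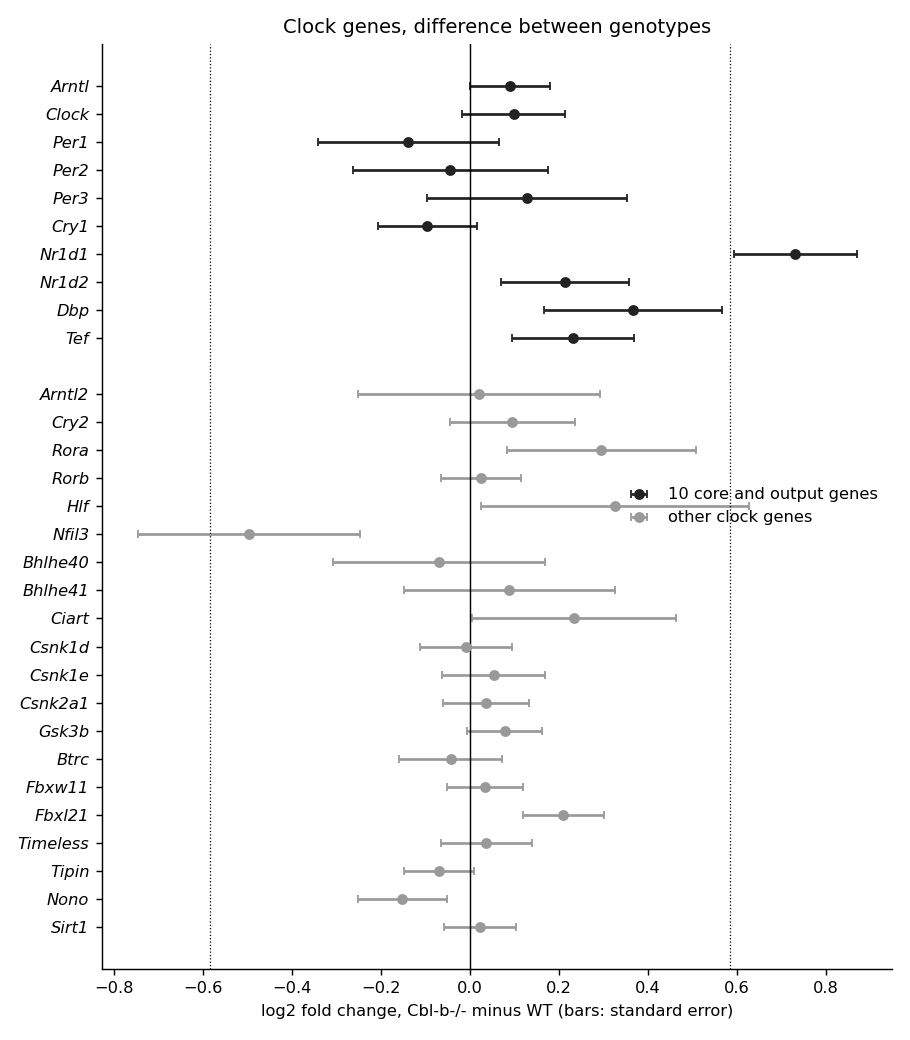
Log2 fold change, Cbl-b-/- minus WT, with its standard error from limma (x axis), for the 10 clock genes and 20 other clock genes; dotted lines mark 1.5-fold. Nr1d1 (0.73) is the single gene beyond a dotted line, and Nfil3 (-0.50) has the lowest value.

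Genes that the REV-ERB proteins are known to repress and genes driven by the clock were counted next. Of 10 REV-ERB repressed genes 7 were measured, beside Arntl, given above. By limma or by the per-row test 0 were called (3 above 0, 4 below, median -0.06), where limma called 0.496% of rows with 1 symbol. None had an unadjusted p under 0.05 in limma, which 2329 of all 35556 rows had. Ccl2, a chemokine gene repressed by REV-ERB alpha in macrophages, measured 9.76, 9.54 and 8.36 in Cbl-b-/- skin and 9.78, 9.66 and 10.32 in WT skin (log2 fold change -0.70 ± 0.38), and Nfil3 is given above. Only Cbl-b-/- replicate 3 was far below the others in Ccl2. Of 16 clock output genes 14 were measured and 0 were called by either test (5 above 0, 9 below, median -0.08), again beside 0.496% called by limma. Only 1, Mt1, had an unadjusted p under 0.05 in limma, as did 2329 of all 35556 rows. Ppp1r3c, a subunit that directs a phosphatase to glycogen, measured 7.43, 6.48 and 8.43 in Cbl-b-/- skin and 8.85, 8.25 and 7.44 in WT skin (-0.74 ± 0.55), and Tsc22d3, the glucocorticoid-induced leucine zipper, measured 8.04, 8.01 and 9.11 in Cbl-b-/- skin and 9.33, 8.86 and 8.28 in WT skin (-0.44 ± 0.38). In these 2 genes the order of the arrays resembled that of Per1 and Per2, with Cbl-b-/- replicate 3 and WT replicates 1 and 2 high. Without Cbl-b-/- replicate 3 both were called, Ppp1r3c at -1.23 and Tsc22d3 at -0.80, but Ppp1r3c was at -0.25 without Cbl-b-/- replicate 2 and Tsc22d3 at -0.18 without WT replicate 1. Wee1, a cell cycle kinase gene driven by CLOCK and BMAL1, measured 7.84, 7.67 and 8.40 in Cbl-b-/- skin and 8.48, 8.31 and 8.12 in WT skin (-0.33 ± 0.20). Alas1, of haem synthesis, was at -0.34 ± 0.16. Mt1 and Mt2, which encode metal-binding metallothioneins, had every Cbl-b-/- value below the lowest WT value, with means lower by 0.25 and 0.13, under 1.5-fold, where 4.11% of rows with 1 symbol were lower without overlap.

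The genes whose pattern over the 6 arrays was most like that of Nr1d1 were sought among 12349 rows with 1 symbol and a mean at or above the table's median, each centred on its own mean, by the mean absolute difference from Nr1d1. They were Extl1 (0.11), Mfge8 (0.12), Ptprm (0.12), Acsbg1 (0.13) and Cygb (0.14), in log2 units. Extl1, which belongs to the exostosin glycosyltransferase family, measured 8.67, 8.36 and 8.40 in Cbl-b-/- skin and 7.90, 7.95 and 7.85 in WT skin. Mfge8, a secreted protein that bridges apoptotic cells to phagocytes, measured 9.78, 9.36 and 9.56 in Cbl-b-/- skin and 9.01, 9.13 and 8.94 in WT skin. The other clock genes were less alike: ranked with the same rows Dbp stood at place 80 (0.19), Rora at 177, Tef at 406, Nr1d2 at 532 and Per1 at 9773 (0.43). Nearest to the mirror image of Nr1d1 were Loxl4 (0.11), Snord73b (0.12), Aldh1a3 (0.12), Snord42a (0.12) and Cspp1 (0.13), and Arntl stood at place 8345 (0.41) in that order. Loxl4, a lysyl oxidase of collagen cross-linking, measured 8.08, 8.43 and 8.08 in Cbl-b-/- skin and 8.47, 8.85 and 8.92 in WT skin. These patterns include the difference between genotypes by which Nr1d1 was chosen, and are a description over 6 arrays.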

How the data were processed

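RNA from the back skin of 3 Cbl-b-/- and 3 WT mice was measured on 6 arrays. The authors deposited 1 log2 value per array and row, after RMA, which corrects background, equalizes the arrays by quantiles and summarises the probes of a row, in Partek Genomics Suite; Affymetrix Expression Console is named too in the submitters' processing notes. The quantile step gives all arrays near equal distributions. Rows were named through the platform annotation: 21789 have 1 symbol, 1621 several and 12146 none. The number of arrays limits the precision.

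Genotypes were compared over all 35556 rows with limma 3.58.1 (R 4.3.3; lmFit and eBayes, 2-sided, Benjamini-Hochberg adjustment over all rows), which was tested on simulated data. Called means an unadjusted p under 0.05 and at least 1.5-fold. Of all rows 98 were called higher and 336 lower in Cbl-b-/-, and 1 had an adjusted p under 0.05. Tables and figures used Python 3.11.15, pandas 2.3.3 and matplotlib 3.10.9. The members and gene lists were chosen with earlier results of these data known. Named genes were the members, for each list other than the cell type markers the called genes and the 2 (4 in lists over 10 genes) with the largest fold changes, and the 5 genes nearest to Nr1d1 in pattern and the 5 nearest to its mirror image; Fbxl21, Csnk1d, Csnk1e, Btrc, Mt1, Mt2, Map3k6, Sgk1, Cdkn1c, Thra and genes called in an alternative only were added after their values were seen. Cell type marker lists are given as means, with the called Myh2 named besides. Listed genes to which no single-symbol row was matched were not analysed here. Alternatives were the methods' per-row test, a replicate block, other scalings, a filter on dim rows, a variance trend and leaving out arrays.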

Additional observations from a re-analysis of the deposited data

How the results depend on the processing

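Nr1d1 met the thresholds in all 13 alternatives, with log2 fold changes of 0.64 to 0.85, and no other clock gene of the 10 met them in any. Among the other 9, Arntl, Cry1, Nr1d2, Dbp and Tef kept their sign in every alternative, while Per2 (-0.27 to 0.10), Clock (-0.06 to 0.16), Per1 (-0.34 to 0.01) and Per3 (-0.04 to 0.37) changed it when certain arrays were left out. Of all rows, 434 were called with 6 arrays (98 higher, 336 lower), 267 by the methods' per-row test (54 higher, 213 lower), 176 without dim rows (45 higher, 131 lower) and 950 on the 4 arrays left without Cbl-b-/- replicate 2 and WT replicate 3, a fit chosen after seeing the data (226 higher, 724 lower); leaving out 1 array gave 428 to 790 (98 to 212 higher, 330 to 578 lower), the most without Cbl-b-/- replicate 2, and 184 higher without WT replicate 1. The count at an adjusted p under 0.05 was 1, against 2 by the per-row test, 9 without dim rows and 1 to 2 with 1 array left out. With a replicate block 453 rows were called, including Nr1d1. Deviations of same-numbered arrays correlated at 0.23, 0.09 and 0.25, and those of different numbers at -0.33 to 0.23. Each Cbl-b-/- array correlated most with the WT array of its number. For Cbl-b-/- replicate 1 this was close, at 0.233 against 0.232 with WT replicate 2, which correlated less (0.09) with its own number. In each row the deviations within a genotype cancel out, so these correlations are not independent. They cannot settle a pairing, and the numbers were not taken to pair the mice. The block changed no call among the 10 genes. Leaving out 1 array gave 0 to 1 other clock genes called in each direction (Hlf and Nfil3, without Cbl-b-/- replicate 2; Nfil3 also on 4 arrays, at -0.73, 1 gene), 0 to 1 output genes called higher (Pdk4 at 0.60, without WT replicate 1, against 0.12 without WT replicate 3) and 0 to 2 lower, 0 to 1 REV-ERB repressed genes in each direction (Mmp9 at 0.78, without Cbl-b-/- replicate 3, against 0.05 without Cbl-b-/- replicate 2; Nfil3, also the 1 called lower on 4 arrays), and 0 to 2 glucocorticoid-induced genes called lower, where the per-row test called 0. The activator minus repressor difference of -0.04 ran between -0.15 and 0.08 with 1 array left out, was -0.07 on 4 arrays, -0.64 for Arntl minus Nr1d1 and 0.52 in SD units. The cause of these shifts was not tested. The score with Npas2 was not run, since no single-symbol row was matched to Npas2. With 3 arrays a group an exact permutation test of 1 value cannot go below 0.1 (2-sided).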

Other observations

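Glucocorticoids reach skin in a daily rhythm and induce Per1, so the genes they induce were read beside the clock. All 10 listed genes were measured. Fkbp5, a chaperone partner of the glucocorticoid receptor, was the 1 gene of the 10 called, lower in Cbl-b-/- skin, where 0.28% of rows with 1 symbol were called lower. It measured 7.59, 7.71 and 7.63 in Cbl-b-/- skin and 9.05, 8.56 and 7.68 in WT skin, with a log2 fold change of -0.79 ± 0.32 (limma, adjusted p = 0.749). The Cbl-b-/- arrays lay close together and the WT arrays spread over more than 1 log2 unit, with WT replicate 3 among the Cbl-b-/- values; leaving out that array gave -1.16, still called, while the call was lost without any 1 of the other 5 arrays (-0.48 without WT replicate 1) and in the methods' per-row test. Map3k6, a stress kinase, was lower without overlap, at 8.25, 8.38 and 8.08 in Cbl-b-/- skin and 8.66, 8.81 and 8.42 in WT skin (-0.40 ± 0.13, adjusted p = 0.743). Sgk1, a kinase of ion transport, and Mt2 likewise had every Cbl-b-/- value below the lowest WT value, with means lower by 0.15 and 0.13, and Cdkn1c, a cell cycle inhibitor, was higher without overlap, by 0.23; of rows with 1 symbol, 4.11% were lower and 9.5% higher without overlap. Over the list 8 log2 fold changes were below 0 and 2 above, with a median of -0.14, beside 0.02 over all rows. Zbtb16, a transcription factor, was at -0.35 ± 0.36, and was called at -0.72 without WT replicate 3, against -0.04 without WT replicate 1. Hair follicle, adipocyte and muscle markers moved with WT replicate 3 as well, and their part in these values was not tested.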
